A study of Mus with 18 samples.

Results

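The CCAAT/enhancer-binding protein (C/EBP) genes were described here in mouse RNA-seq libraries from an experiment with lipopolysaccharide (LPS), a bacterial cell wall component, and moringa isothiocyanate-1 (MIC-1), an isothiocyanate from moringa seeds. The 5 genes Cebpa, Cebpb, Cebpd, Cebpg and Cebpz were taken by symbol, and all 5 were found among the 21376 gene symbols that the cell and muscle files share. The study asked how LPS changes gene expression and whether MIC-1 changes that response. It holds 18 libraries, 3 for each of 3 groups in each of 2 experiments. In the first, libraries labelled as C2C12, a mouse myoblast line, came from a control with a saline vehicle, from LPS at 1 µg/mL, or from LPS at 1 µg/mL with MIC-1 at 10 µM for 24 h (LPS-MIC-1). The MIC-1 concentration is that of the labels, and the text of the study gives another for the sequenced cells. Saline is likewise the labels' word, and the methods of the study name ethanol as the vehicle of the cells. In the second, gastrocnemius muscle, trimmed of fat and connective tissue, came from wild type C57BL/6 male mice that received vehicle, LPS at 10 mg/kg intraperitoneally 16 h before collection, or MIC-1 at 80 mg/kg in 10% DMSO by daily gavage for 3 days before the same LPS dose. The ages of the mice are not given in the sources used here. Nothing in the labels says that the 3 libraries of a group came from separate cultures or animals, so p-values measure only the spread between these libraries. Values after ± are SDs over the 3 libraries of a group.

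C/EBP proteins are transcription factors that pair through a leucine zipper and bind DNA through an adjacent basic region. C/EBPβ and C/EBPδ are known for rapid induction by inflammatory signals such as LPS, interleukin-1 and interleukin-6, and for driving acute-phase and cytokine genes. C/EBPα drives granulocyte and fat-cell differentiation, and C/EBPγ, which lacks a strong activation domain, pairs with other family members and with ATF4. Cebpz carries the family name but encodes a CCAAT-box-binding protein without the leucine zipper, related to nucleolar factors of ribosome assembly. In muscle, C/EBPβ and C/EBPδ are known for their response to glucocorticoids and for their link to genes of muscle wasting.

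The markers of the labelled cell type were checked before the comparisons, and the libraries labelled C2C12 did not all carry them. In the control and LPS libraries, the summed level of 9 myoblast markers was 0.136 to 1.99 FPKM (fragments per kilobase of transcript, scaled to library size), with the defining genes Myf5 and Pax7 listed at 0 in all 6 libraries. In the 3 LPS-MIC-1 libraries the same sum was 717 to 930 FPKM. The 12 macrophage markers found summed to 7242 to 10361 FPKM in the control and LPS libraries and to 80.1 to 279 FPKM in the LPS-MIC-1 libraries. Lyz2, the lysozyme gene of macrophages, was at 4694 ± 85.5 FPKM in the control libraries and 17.1 ± 27.4 FPKM in the LPS-MIC-1 libraries (SD, n = 3). Des, the muscle intermediate filament desmin, was at 0.126 ± 0.135 and 398 ± 78.7 FPKM in the same groups. MIC-1 treatment and this difference in cell markers coincide in the libraries labelled C2C12 and cannot be told apart, which bears on each comparison of their LPS-MIC-1 group below. In muscle, the 10 fibre markers summed to 164478 to 177513 FPKM in the LPS-MIC-1 group and to 206144 to 221759 FPKM in the other groups. Macrophage markers summed to 17.1 to 26.6 FPKM in the control and LPS muscles, to 32.5 and 34.7 FPKM in LPS-MIC-1 replicates 2 and 1, and to 193 FPKM in LPS-MIC-1 replicate 3, with the defining genes Emr1 and Ptprc listed at 0 in the 3 LPS muscles. Neutrophil markers summed to 1.58 to 2.56 FPKM in control and LPS muscle and to 10.7 to 17.1 FPKM in LPS-MIC-1 muscle, with Elane listed at 0 in all 9 muscle libraries. S100a8 was at 0.491 ± 0.425 FPKM in LPS and 7.38 ± 0.118 FPKM in LPS-MIC-1 muscle. Cxcr2 was at 1.17 ± 0.141 and 1.44 ± 0.336 FPKM in the same groups, so the neutrophil sum does not stand for each of its markers. The part of these leukocyte markers in the muscle results was not tested. Of 7 fibroblast markers tested, 0 were called higher and 3 lower in LPS-MIC-1 against LPS, where 9.67% and 5.44% of all genes were. The 2 most abundant moved apart, Dcn from 74.5 ± 0.600 to 120 ± 7.91 FPKM and Col3a1 from 16.9 ± 0.913 to 7.23 ± 0.274 FPKM. Endothelial markers summed to 121 to 123 FPKM in control and 77.2 to 83.8 FPKM in the other muscles. In bulk RNA, fewer cells of a type and less RNA per cell cannot be told apart. The muscle groups also need care. Lcn2 and Saa3, genes known to be induced by LPS, were at 0.972 ± 0.552 and 1.03 ± 0.265 FPKM in the muscles labelled LPS and at 1248 ± 79.1 and 511 ± 31.8 FPKM in those labelled LPS-MIC-1. Directions in muscle follow the labels throughout, and an effect of treatment and an exchange of labels between those 2 muscle groups cannot be told apart with these files.

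**Figure D1:**
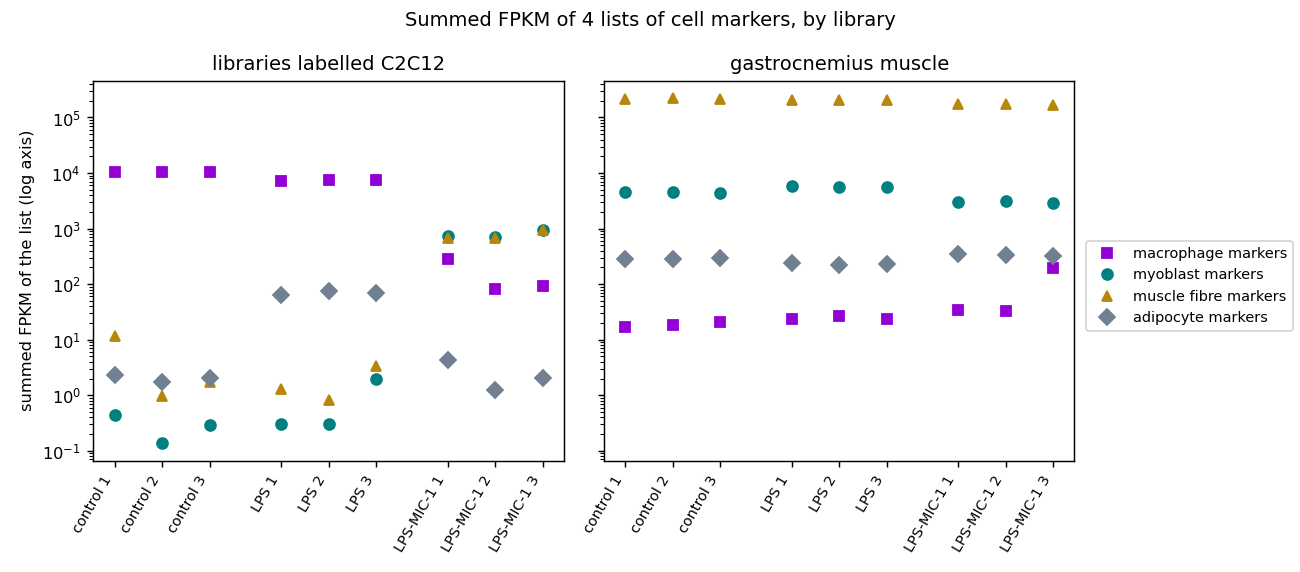
Summed FPKM (log axis) of the macrophage, myoblast, muscle fibre and adipocyte marker lists in each of the 9 libraries labelled C2C12 (left) and the 9 muscle libraries (right), where each symbol is 1 library. In the left panel, macrophage markers are at 7242 to 10361 FPKM in control and LPS and at 80.1 to 279 FPKM in LPS-MIC-1, and myoblast markers are at most at 1.99 FPKM in the first 2 groups and at 717 to 930 FPKM in the third.

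Cebpb and Cebpd carried most of the calls, and the groups stood in another order in each experiment. Among the libraries labelled C2C12, both rose with LPS and Cebpb fell again in LPS-MIC-1. In muscle, Cebpd fell with LPS, and both genes were far higher in LPS-MIC-1 than in either other group. Cebpg was called in 1 of the 6 comparisons and Cebpz in 0 (limma; 5 of its 6 unadjusted p-values were under 0.05), and Cebpa was listed at or near 0 throughout. Genes were tested with limma on log2(FPKM + 0.1) where their mean over the 9 libraries of an experiment was over 1 FPKM, which 4 of the 5 C/EBP genes passed in each experiment. A gene was called changed where its log2 fold change was over 1 in size with an adjusted p under 0.001 in the libraries labelled C2C12 or under 0.05 in muscle. The fold and p limits are those of the study's methods, which do not say that p was adjusted. Elsewhere the study names adjusted p for the cells and for its clustered muscle genes, but not for its counts of changed muscle genes.

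These counts stand against very different backgrounds. Among the libraries labelled C2C12, 2 of the 4 tested C/EBP genes were called in LPS against control, where 20.9% of all 10877 tested genes were called. For LPS-MIC-1 against LPS, 2 of 4 were called against 49.9% of all genes, and in LPS-MIC-1 against control, 0 of 4 against 43.3%. The exact permutation test cannot go below p = 0.1 with 3 libraries against 3, and 2 of 4 C/EBP genes had an unadjusted limma p under 0.05 in that last comparison. In muscle, 1 of 4 was called in LPS against control, where only 1.25% of 9475 tested genes were. In LPS-MIC-1 against LPS and against control, 2 of 4 C/EBP genes were called each time, against 15.1% and 15.5% of all genes. Separation of the 3 libraries of one group from the 3 of the other was common among all genes. It held for 4, 3 and 2 of the 4 C/EBP genes in LPS against control, LPS-MIC-1 against LPS and LPS-MIC-1 against control of the libraries labelled C2C12, where 79.4%, 85.5% and 83% of all genes did not overlap. It held for 3 of the 4 in each muscle comparison, where 36.5%, 64.2% and 64.6% of all genes did not overlap. All 3 comparisons of an experiment share groups and are not independent of each other.

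Cebpb, which encodes C/EBPβ, was the most abundant of the 5 genes in the libraries labelled C2C12. Its levels were 64.1, 69.0 and 70.4 FPKM in control replicates 1, 2 and 3. They were 252, 256 and 261 FPKM in the LPS replicates and 71.0, 61.8 and 65.6 FPKM in the LPS-MIC-1 replicates. Every LPS library was thus above every other library, and the control and LPS-MIC-1 libraries overlapped. The mean rose 3.78-fold from 67.8 ± 3.28 to 256 ± 4.03 FPKM with LPS (SD, n = 3), a log2 fold change of 1.92 (SE 0.0591; limma, adjusted p = 1.10e-07). The LPS-MIC-1 mean, 66.1 ± 4.61 FPKM, gave -1.96 against LPS on the same scale (limma, adjusted p = 2.10e-08). LPS-MIC-1 and control differed by -0.04 on the log2 scale, with a 95% interval of -0.17 to 0.10 (limma, adjusted p = 0.574). The LPS-MIC-1 group here carried myoblast markers and the other groups carried macrophage markers, so these levels of Cebpb were read in libraries of different marker content.

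In muscle the same gene followed another order. Cebpb stood at 20.3, 22.4 and 19.6 FPKM in the control replicates, at 14.7, 14.7 and 14.8 FPKM in the LPS replicates and at 81.9, 89.1 and 78.8 FPKM in the LPS-MIC-1 replicates. No group overlapped another, with LPS lowest and LPS-MIC-1 highest. The mean in LPS-MIC-1, 83.3 ± 5.27 FPKM, was 5.65-fold that in LPS, 14.7 ± 0.0512 FPKM (log2 fold change 2.49, SE 0.0618; limma, adjusted p = 1.36e-08), and 4.01-fold that in control, 20.8 ± 1.48 FPKM (log2 fold change 2.00; limma, adjusted p = 4.29e-08). LPS against control gave -0.49 on the log2 scale (limma, adjusted p = 0.0014), which was under the required fold and was not called.

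Cebpd, which encodes C/EBPδ, showed the widest range of the family, 4.05 to 422 FPKM across the muscle libraries. Control muscle had 12.3, 13.4 and 13.0 FPKM and LPS muscle 4.58, 5.35 and 4.05 FPKM. LPS-MIC-1 muscle had 399, 422 and 377 FPKM. The 3 groups were fully apart, again with LPS lowest. Cebpd fell with LPS from 12.9 ± 0.561 to 4.66 ± 0.654 FPKM (log2 fold change -1.46, SE 0.0942; limma, adjusted p = 4.97e-05), in a comparison where 0.591% of tested genes were called lower. It was 85.7-fold higher in LPS-MIC-1 than in LPS (log2 fold change 6.40, SE 0.0942; limma, adjusted p = 1.02e-09), the 11th largest change in size among 9475 genes, and 31.0-fold higher than in control (log2 fold change 4.94; limma, adjusted p = 2.92e-09). In rank, it moved from above 66.6% to 68.5% of tested genes in the control muscles to above 38.3% to 46.2% in LPS and above 97.9% to 98.0% in LPS-MIC-1. LPS-MIC-1 replicate 3, the muscle library with the most macrophage marker RNA, had the lowest Cebpd and the lowest Cebpb of its group. Without it, the log2 fold changes against LPS were 6.44 for Cebpd and 2.53 for Cebpb.

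In the libraries labelled C2C12, Cebpd was at 19.2, 18.1 and 18.4 FPKM in control, at 38.8, 36.5 and 40.2 FPKM in LPS and at 36.6, 26.1 and 40.8 FPKM in LPS-MIC-1. The control libraries lay below all others, and LPS and LPS-MIC-1 overlapped, with LPS-MIC-1 replicate 2 apart from its group at 26.1 FPKM. The mean rose 2.07-fold with LPS (log2 fold change 1.05, SE 0.146; limma, adjusted p = 0.000342). This call was lost without any single one of the 6 control and LPS libraries, at log2 fold changes of 1.02 to 1.09 and limma adjusted p of 0.00151 to 0.00212. LPS-MIC-1 against LPS gave -0.18 (95% interval -0.52 to 0.16; limma, adjusted p = 0.271). LPS-MIC-1 against control gave 0.87 (limma, adjusted p = 0.000664), under the required fold, and without LPS-MIC-1 replicate 2 it gave 1.05 and passed (limma, adjusted p = 6.44e-06).

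**Figure D2:**
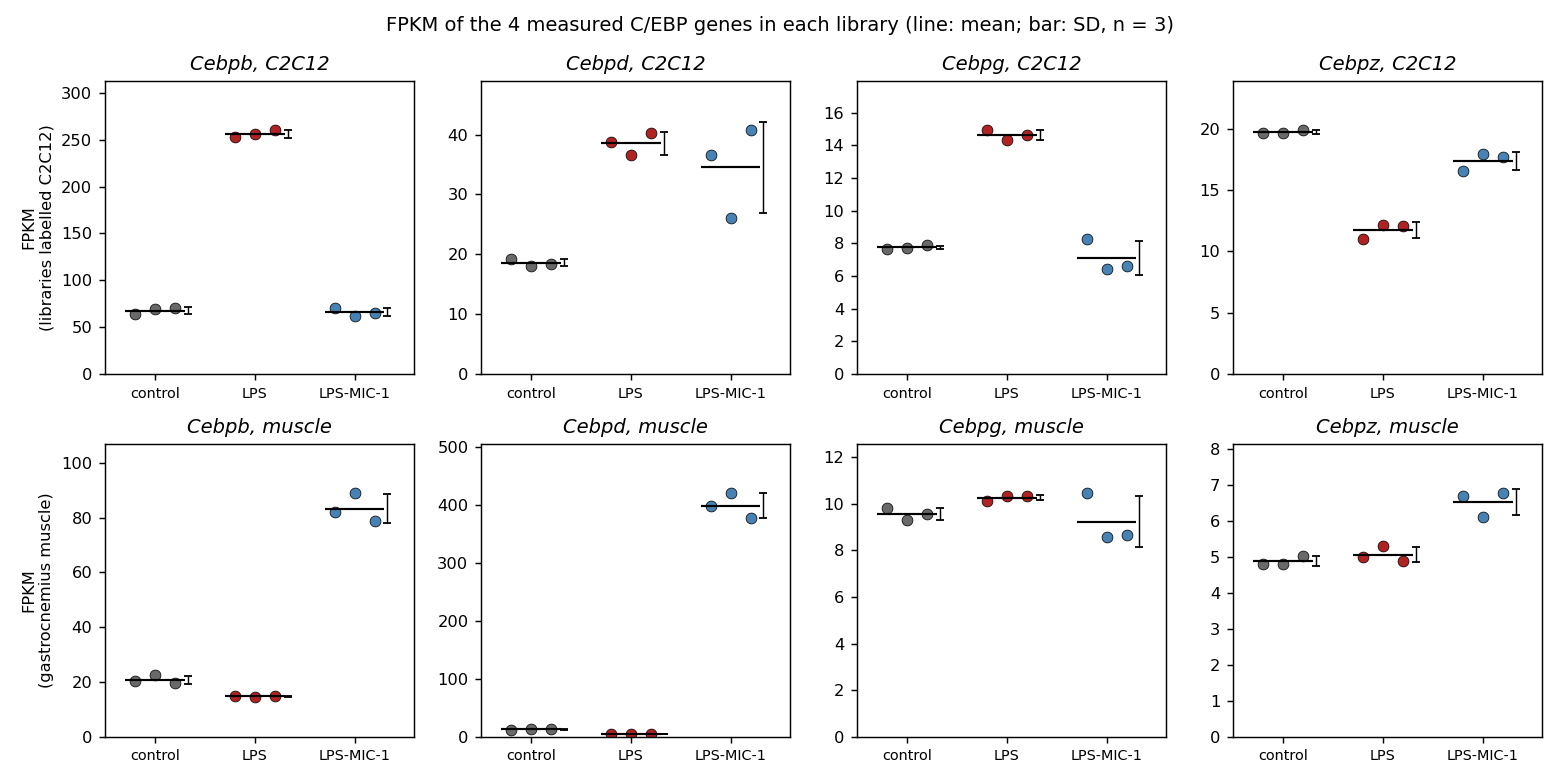
FPKM of Cebpb, Cebpd, Cebpg and Cebpz (columns; linear axes from 0 that differ between panels) in the libraries labelled C2C12 (top) and in muscle (bottom), by group. Points are libraries, lines are means and bars are SDs (n = 3). Cebpb is highest in LPS at the top left and highest in LPS-MIC-1 at the bottom left, and Cebpd reaches 377 to 422 FPKM in LPS-MIC-1 muscle.

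Cebpa, which encodes C/EBPα, was at or near 0 in every library. It was listed at 0 in all 9 muscle libraries and in 8 of the 9 libraries labelled C2C12, and at 0.0198 FPKM in control replicate 3 of the latter. The mean normalized counts given by the authors were 0 to 0.151 for Cebpa in the 5 tables used, against 312 to 5971 for the other 4 genes. In each experiment, 4165 to 4204 of the 21401 listed genes were at 0 in all 9 libraries. A value of 0 in these files can also be a failed estimate, and no fold change was computed for Cebpa.

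Cebpg, which encodes C/EBPγ, followed Cebpb in the libraries labelled C2C12 at a lower level. It had 7.69, 7.69 and 7.88 FPKM in control, 15.0, 14.4 and 14.6 FPKM in LPS, and 8.30, 6.42 and 6.61 FPKM in LPS-MIC-1. The LPS libraries were above all others, and control and LPS-MIC-1 overlapped. LPS against control gave a log2 fold change of 0.91 (SE 0.0991; limma, adjusted p = 8.17e-05), short of the required fold. It fell in LPS-MIC-1 against LPS by 1.04 on the log2 scale (limma, adjusted p = 1.64e-05), a call that sat at the threshold and was lost at -0.97 without LPS-MIC-1 replicate 2, at -0.99 without LPS-MIC-1 replicate 3, at -0.96 with a pseudocount of 1 and at -0.83 after quantile normalization. In muscle, Cebpg was at 8.57 to 10.5 FPKM in all 9 libraries. Its group means were 9.55 ± 0.258 FPKM in control, 10.3 ± 0.119 with LPS and 9.24 ± 1.08 in LPS-MIC-1, and its 3 log2 fold changes lay between -0.16 and 0.10 with 95% intervals that together spanned -0.34 to 0.28.

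Cebpz, the CCAAT-box-binding protein without a leucine zipper, went the other way in the libraries labelled C2C12. Its levels were 19.6, 19.7 and 19.9 FPKM in control, 11.0, 12.1 and 12.1 FPKM in LPS, and 16.6, 17.9 and 17.7 FPKM in LPS-MIC-1. The 3 groups did not overlap, with LPS lowest. LPS against control gave -0.75 (SE 0.0587; limma, adjusted p = 1.26e-05) and LPS-MIC-1 against LPS gave 0.56 (limma, adjusted p = 2.94e-05), both under the required fold. In muscle it was at 4.79, 4.81 and 5.03 FPKM in control, at 4.99, 5.31 and 4.89 FPKM in LPS and at 6.69, 6.11 and 6.79 FPKM in LPS-MIC-1. The LPS-MIC-1 muscles were above the rest, and control and LPS overlapped. The log2 fold change of LPS-MIC-1 was 0.36 against LPS (limma, adjusted p = 0.00181) and 0.41 against control (limma, adjusted p = 0.000827), and neither reached the fold.

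**Figure D3:**
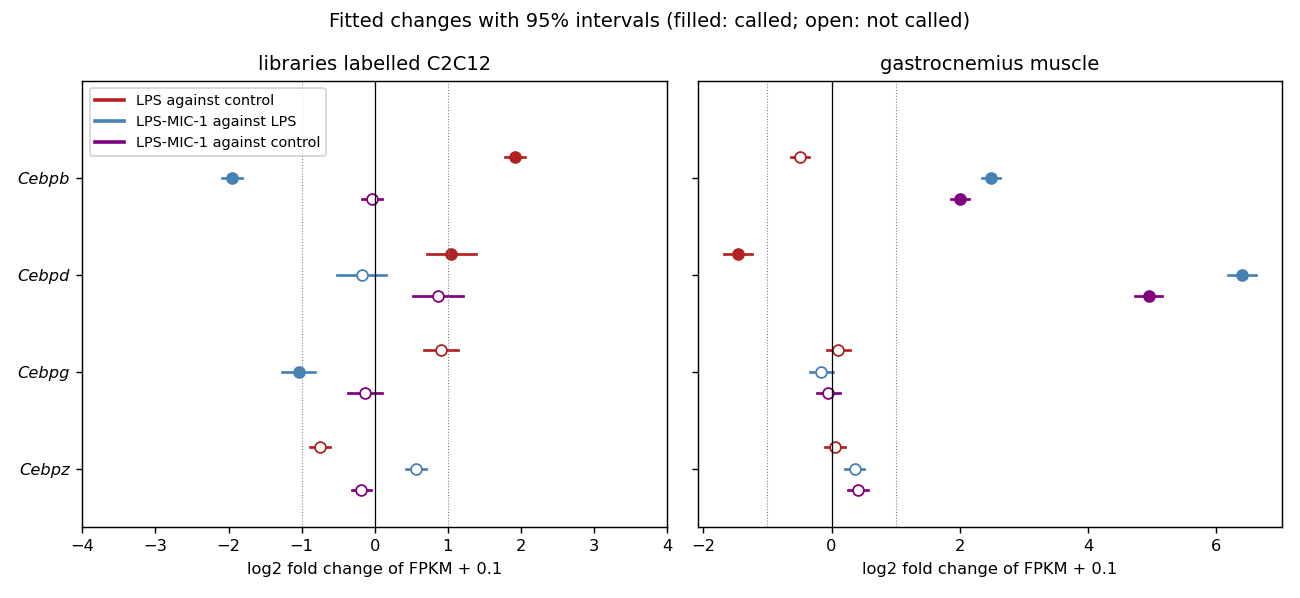
Log2 fold change of FPKM + 0.1 with its 95% interval (limma) for the 4 tested C/EBP genes in 3 comparisons, in the libraries labelled C2C12 (left) and muscle (right). The 2 panels have different horizontal scales, filled points were called, and dotted lines mark -1 and 1. Cebpb and Cebpd lie to the right of 0 in LPS against control on the left panel and to the left of 0 on the right panel.

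The order of the genes by FPKM, a level per transcript length, depended on the group. In the libraries labelled C2C12, Cebpb came first in every group, followed by Cebpz, Cebpd and Cebpg in control, by Cebpd, Cebpg and Cebpz in LPS and by Cebpd, Cebpz and Cebpg in LPS-MIC-1. In muscle, the order was Cebpb, Cebpd, Cebpg and Cebpz in control, Cebpb, Cebpg, Cebpz and Cebpd in LPS, and Cebpd, Cebpb, Cebpg and Cebpz in LPS-MIC-1. The ranges over libraries overlapped for 1 pair of neighbours, Cebpz and Cebpd in LPS muscle. Cebpa was last throughout.

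The balance within the family shifted with these levels. In the libraries labelled C2C12, the summed FPKM of the 5 genes was 114 ± 2.98 in control, 321 ± 5.49 with LPS and 125 ± 11.2 in LPS-MIC-1. Cebpb made up 59.5% ± 1.38 of it in control, 79.8% ± 0.389 with LPS and 52.9% ± 2.49 in LPS-MIC-1. Cebpz made up 17.3%, 3.65% and 14.0% in the same order. In muscle, the sum was 48.1 ± 1.56 in control, 34.7 ± 0.832 with LPS and 498 ± 27.0 in LPS-MIC-1. Cebpd made up 26.8% ± 0.799 of it in control, 13.4% ± 1.56 with LPS and 80.1% ± 0.125 in LPS-MIC-1, while the share of Cebpb was 43.1%, 42.5% and 16.7%. The ratio of Cebpd to Cebpb was 0.622 ± 0.0378 in control muscle, 0.316 ± 0.0455 with LPS and 4.79 ± 0.0688 in LPS-MIC-1 muscle. It was 0.274 ± 0.0220, 0.150 ± 0.00650 and 0.520 ± 0.0995 in the same groups of the libraries labelled C2C12. In both experiments the ratio was lowest in LPS and highest in LPS-MIC-1, with no overlap between groups. Each of these 6 contrasts had the smallest p that the exact two-sided permutation test allows, 0.1 (0.106 after Benjamini-Hochberg adjustment over 18 ratio tests), so the design could not pass 0.05.

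**Figure D4:**
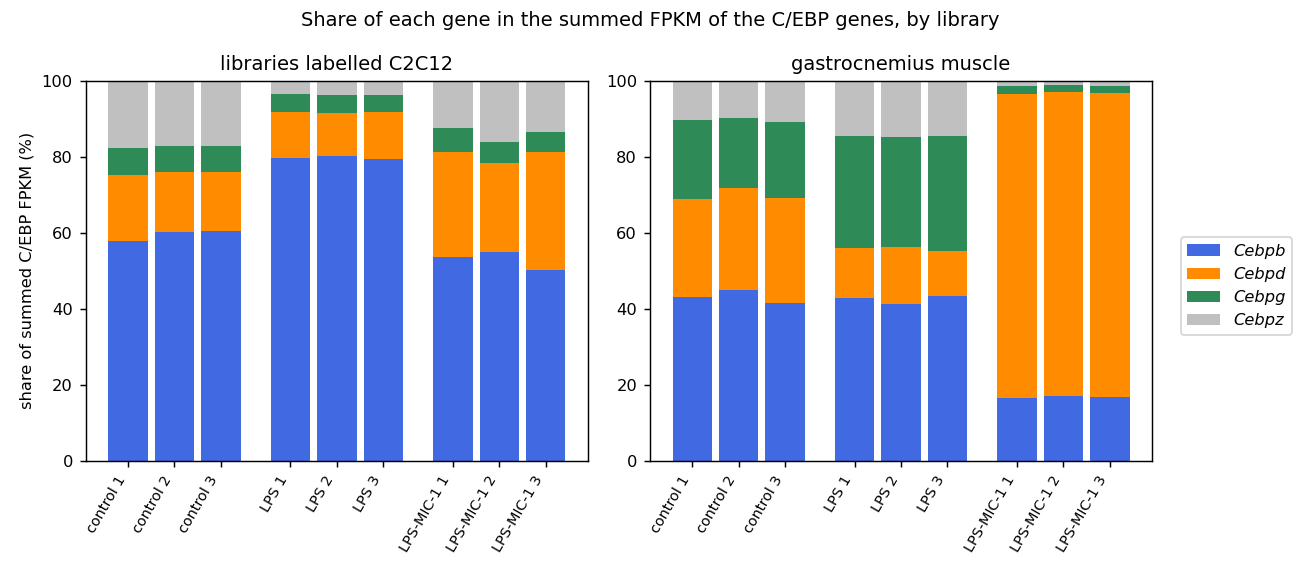
Share of each gene in the summed FPKM of the C/EBP genes (%, bars from 0 to 100) for each of the 9 libraries labelled C2C12 (left) and the 9 muscle libraries (right). Cebpa adds at most 0.0170% and is not drawn. Cebpb makes up 79.6% to 80.2% in the LPS libraries labelled C2C12, and Cebpd 80.0% to 80.2% in LPS-MIC-1 muscle.

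Relatives and binding partners of the C/EBP proteins were read from a list of 11 genes, of which 8 were tested in each experiment. With LPS, 3 of them rose and 0 fell in the libraries labelled C2C12, against a background of 10.9% of all genes called higher and 10% called lower, and their median log2 fold change was 0.50 against 0 over all tested genes. Ddit3, which encodes the C/EBP family member CHOP of the stress response, rose from 17.3 ± 1.53 to 183 ± 7.97 FPKM (log2 fold change 3.39; limma, adjusted p = 2.05e-07). Atf4, the stress-induced partner of C/EBPγ, rose from 182 ± 5.34 to 610 ± 18.7 FPKM (log2 fold change 1.74; limma, adjusted p = 8.17e-08). Against LPS, 0 rose and 5 fell in LPS-MIC-1, where the background was 24.3% and 25.6% of all genes. Cebpe, which encodes the granulocyte factor C/EBPε, was at 7.68 to 8.44 FPKM in control, at 6.53 to 7.41 FPKM in LPS and listed at 0 in all 3 LPS-MIC-1 libraries. Fos, a leucine zipper protein of the AP-1 complex, fell from 275 ± 9.57 to 13.9 ± 3.80 FPKM in that comparison (limma, adjusted p = 7.92e-08). In muscle, 0 of 8 were called in LPS against control (limma; 4 had an unadjusted p under 0.05, and 0.654% of all genes were called higher), where 1 was called lower without LPS-MIC-1 replicate 3. The LPS-MIC-1 muscles had 2 higher and 1 lower than LPS, against 9.67% and 5.44% of all genes. Nfil3, a leucine zipper repressor, rose from 11.4 ± 0.623 to 76.3 ± 4.42 FPKM (limma, adjusted p = 4.41e-09), and Jun from 18.7 ± 0.277 to 95.7 ± 4.86 FPKM (limma, adjusted p = 4.41e-09). Ddit3 in muscle was at 13.6 ± 1.31, 14.8 ± 3.16 and 10.6 ± 1.53 FPKM in control, LPS and LPS-MIC-1 and was not called. Cebpe was at most at 0.207 FPKM in any muscle library.

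Genes that act upstream of Cebpb and Cebpd came from a list of 12, covering LPS and cytokine receptors, NF-κB and STAT factors. With LPS, 2 of 11 tested rose in the libraries labelled C2C12, where 10.9% of all genes were called higher. These were Nfkbiz, a nuclear partner of NF-κB that is known to induce C/EBP genes, from 13.6 ± 0.315 to 120 ± 3.19 FPKM (log2 fold change 3.13; limma, adjusted p = 8.54e-09), and Stat3, the factor downstream of interleukin-6, from 20.4 ± 0.835 to 43.8 ± 0.473 FPKM (log2 fold change 1.10; limma, adjusted p = 4.74e-07). Between LPS and LPS-MIC-1, 1 rose and 4 fell, against 24.3% and 25.6% of all genes. Il1r1 of this list passed the FPKM limit there only through LPS-MIC-1, at a mean of 5.21 FPKM against 0.00612 FPKM over the other groups. The count of genes that rose thus supports nothing. In muscle, 0 of 9 were called in LPS against control, where 1.25% of all genes were (limma; 3 at an unadjusted p under 0.05). In LPS-MIC-1 against LPS, 4 of 9 rose and 0 fell, where 9.67% and 5.44% of all genes did. Stat3 was among them, at 7.06 ± 0.323 FPKM in LPS and 29.7 ± 1.12 FPKM in LPS-MIC-1 (log2 fold change 2.06; limma, adjusted p = 1.75e-08), as was Nfkbiz, at 0.958 ± 0.153 and 4.13 ± 0.454 FPKM (log2 fold change 2.00; limma, adjusted p = 1.60e-05). Nfkbiz passed the FPKM limit in muscle only through LPS-MIC-1.

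Most tested inflammatory targets of C/EBPβ and C/EBPδ were called higher in LPS than in control in the libraries labelled C2C12. In muscle, most of those tested passed the FPKM limit only through LPS-MIC-1. The list held 18 genes, of which 13 were tested in the libraries labelled C2C12 and 10 in muscle, and 1 of them, Cd14, is also on the macrophage marker list. With LPS, 10 of 13 rose and 0 fell in the libraries labelled C2C12, with a median log2 fold change of 6.59, where 10.9% and 10% of all genes were called higher and lower and the median over all genes was 0. Genes low in every group could not be tested, so this count and median describe the 13 and not the list of 18. Csf3, the granulocyte growth factor, rose from 0.501 ± 0.558 to 2581 ± 79.1 FPKM (limma, adjusted p = 9.17e-05), and Lcn2, the iron-binding acute-phase protein lipocalin-2, from 1.16 ± 0.702 to 2674 ± 25.3 FPKM (limma, adjusted p = 3.91e-05). From LPS to LPS-MIC-1, 12 of 13 fell and 0 rose, with a median of -5.57, against 25.6% and 24.3% of all genes. Nos2, the inducible nitric oxide synthase, fell from 735 ± 19.6 to 6.36 ± 10.3 FPKM (limma, adjusted p = 0.000228), with an SD in LPS-MIC-1 that exceeded its mean. In LPS-MIC-1 against control, 3 rose and 1 fell, against 21.1% and 22.1% of all genes, and without LPS-MIC-1 replicate 1, the library of its group with the most macrophage marker RNA, 4 rose and 5 fell.

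In muscle, 2 of the 10 tested inflammatory targets rose and 1 fell with LPS, against 0.654% and 0.591% of all genes. Socs3, the feedback inhibitor of interleukin-6 signalling, fell from 5.50 ± 0.771 to 0.697 ± 0.395 FPKM (log2 fold change -2.95; limma, adjusted p = 0.00112). Saa3, an acute-phase protein, was listed at 0 in the control group and was at 1.03 ± 0.265 FPKM in LPS. In LPS-MIC-1 against LPS all 10 tested rose (9.67% of all genes), but 7 of the 10, Lcn2 and Saa3 among them, passed the FPKM limit only through LPS-MIC-1, the group where they were high. Those 7 had to differ, so the count describes the genes that could be tested, not all 18, and supports nothing. Lcn2 rose from 0.972 ± 0.552 to 1248 ± 79.1 FPKM (limma, adjusted p = 2.41e-06) and Saa3 from 1.03 ± 0.265 to 511 ± 31.8 FPKM (limma, adjusted p = 1.64e-09). Against control, 9 of 10 rose and 0 fell (9.33% and 6.12% of all genes). Both counts were 10 and 9 also without LPS-MIC-1 replicate 3. The limit on the 7 genes holds for the counts against control and without that replicate too, so these support nothing either.

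Myeloid targets of the family, known from granulocyte and macrophage differentiation, came from a list whose members overlap the markers of those cells, with 3 genes on the macrophage and 3 on the neutrophil marker list. Of the 6 tested in the libraries labelled C2C12, 1 fell with LPS (10% of all genes), and 1 rose and 2 fell without LPS-MIC-1 replicate 1. That gene was Csf3r, the receptor for granulocyte growth factor, at 4.24 ± 0.560 FPKM in control and 1.06 ± 0.289 FPKM in LPS (limma, adjusted p = 5.81e-05). Csf3r passed the FPKM limit only through control, the group where it was high, so this call supports nothing. The LPS-MIC-1 libraries were called lower for all 6 tested, both against LPS and against control, with medians of -7.42 and -7.77, where 25.6% and 22.1% of all genes were called lower. Csf3r is among these 6, and its limit holds for the count against control too. Sfpi1, which encodes the myeloid factor PU.1, fell from 306 ± 5.40 FPKM in LPS to 3.02 ± 4.83 FPKM in LPS-MIC-1 (limma, adjusted p = 0.000214). In muscle, 1 of 4 tested rose in LPS-MIC-1 against LPS (9.67% of all genes). It was Sfpi1, which passed the FPKM limit only through LPS-MIC-1, at 0.597 ± 0.134 FPKM in LPS and 3.86 ± 3.81 FPKM in LPS-MIC-1 (limma, adjusted p = 0.0158), and the median of the 4 was 0.50 with and -0.24 without LPS-MIC-1 replicate 3.

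**Figure D5:**
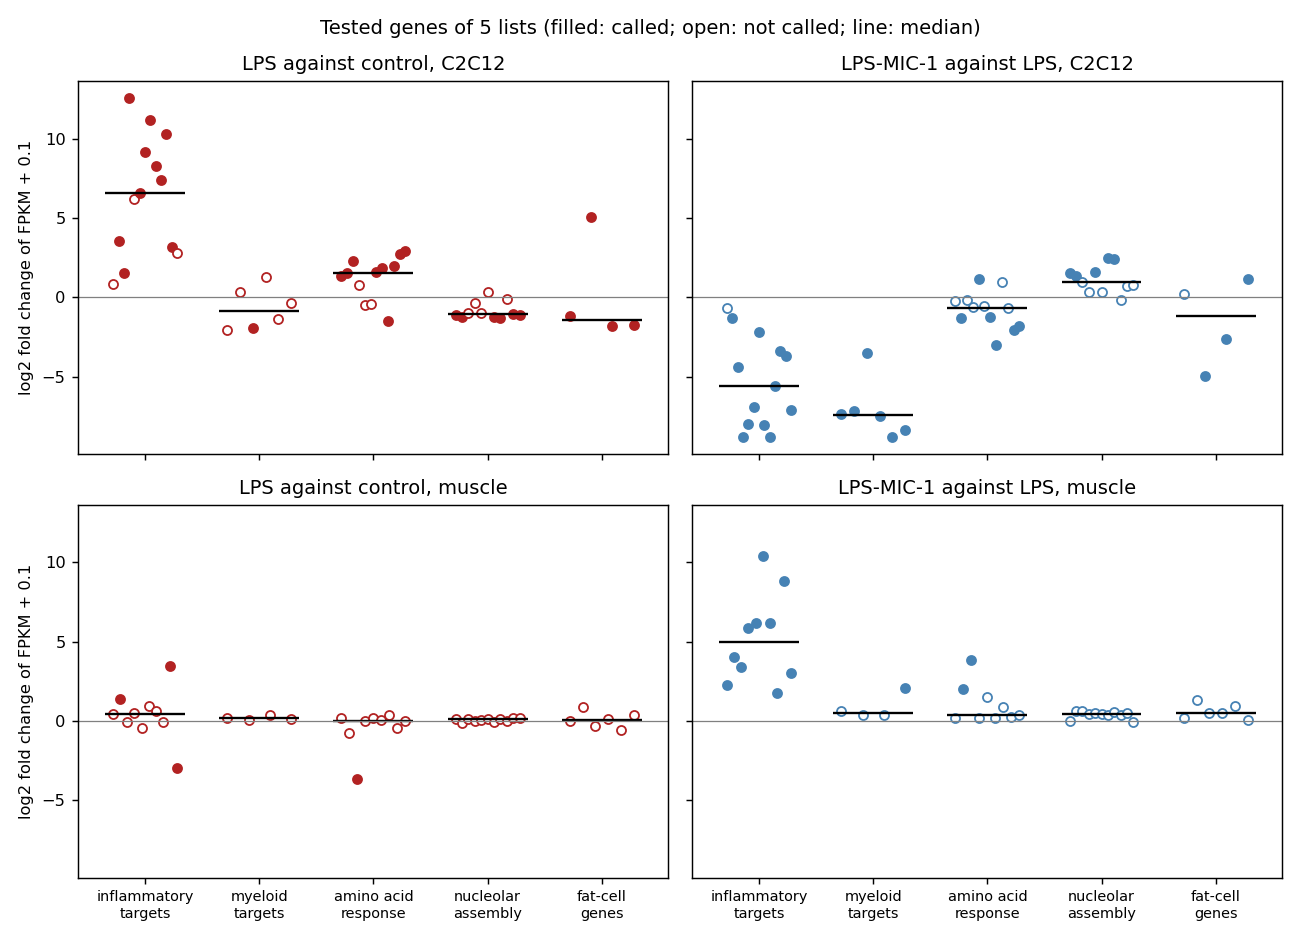
Log2 fold change of FPKM + 0.1 for the tested genes of 5 lists in LPS against control (left) and LPS-MIC-1 against LPS (right), for the libraries labelled C2C12 (top) and muscle (bottom). Each point is a gene, filled where called, and lines are medians. The inflammatory targets have medians of 6.59 and -5.57 at the top, and at the bottom right 7 of their 10 points are genes that passed the FPKM limit only through LPS-MIC-1.

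Amino acid response genes, which C/EBPγ and ATF4 are known to control together, were all tested in the libraries labelled C2C12, and 8 of 12 rose and 1 fell with LPS (median log2 fold change 1.57), against 10.9% and 10% of all genes. Slc7a11, the cystine transporter, rose from 3.21 ± 0.142 to 22.1 ± 0.406 FPKM (limma, adjusted p = 4.50e-08), and Trib3, a stress-induced pseudokinase, from 8.15 ± 0.665 to 61.5 ± 0.886 FPKM (limma, adjusted p = 3.79e-07). Compared with LPS, 1 rose and 5 fell in LPS-MIC-1, against 24.3% and 25.6% of all genes, among them Sesn2, a stress-induced inhibitor of mTORC1, from 44.8 ± 0.189 to 5.51 ± 0.866 FPKM (limma, adjusted p = 3.93e-08). In muscle, where Cebpg was not called in any comparison, 1 of 9 fell with LPS (0.591% of all genes). That was Chac1, a glutathione-degrading enzyme, from 98.0 ± 4.54 to 7.76 ± 1.06 FPKM (log2 fold change -3.65; limma, adjusted p = 4.34e-07). The LPS-MIC-1 muscles exceeded LPS for 2 of 9 (9.67% of all genes), namely Chac1, to 111 ± 6.67 FPKM (limma, adjusted p = 1.43e-08), and Asns, asparagine synthetase, from 0.571 ± 0.0451 to 2.62 ± 0.709 FPKM (limma, adjusted p = 7.88e-05). Asns passed the FPKM limit only through LPS-MIC-1.

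Nucleolar ribosome assembly genes, the functional neighbours of Cebpz, fell for 6 of 11 tested with LPS in the libraries labelled C2C12, and 0 rose (median -1.07), against 10% and 10.9% of all genes. In LPS-MIC-1 against LPS, 5 of 11 rose and 0 fell (median 0.97), against 24.3% and 25.6% of all genes. Nop58, a core protein of small nucleolar ribonucleoproteins, was at 62.0 ± 2.47, 24.7 ± 0.667 and 133 ± 2.46 FPKM in control, LPS and LPS-MIC-1 (limma, adjusted p = 1.34e-07 for the first comparison and 3.62e-09 for the second). Nop56, its partner, was at 120 ± 9.55, 51.7 ± 0.862 and 293 ± 12.8 FPKM. Both genes were highest in LPS-MIC-1, whereas Cebpz was highest in control. In muscle, 0 of 11 passed both thresholds of the limma test in any comparison. In LPS against control, LPS-MIC-1 against LPS and LPS-MIC-1 against control, 1.25%, 15.1% and 15.5% of all genes did. In the same order, 2, 9 and 9 of the 11 had an unadjusted limma p under 0.05. The medians were 0.09 in LPS against control and 0.45 in LPS-MIC-1 against LPS.

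Fat-cell genes, which C/EBPα is known to drive, were tested for 4 of 12 in the libraries labelled C2C12, and 1 rose and 3 fell with LPS, against 10.9% and 10% of all genes. Fabp4, a fatty acid carrier of fat cells and macrophages, rose from 2.00 ± 0.311 to 69.5 ± 5.73 FPKM (limma, adjusted p = 9.92e-06), and Lpl, lipoprotein lipase, fell from 293 ± 6.98 to 84.5 ± 0.421 FPKM (limma, adjusted p = 3.96e-07). In muscle, 0 of 6 tested were called in LPS against control or in LPS-MIC-1 against LPS (limma; 4 at an unadjusted p under 0.05 each time), where 1.25% and 15.1% of all genes were. In LPS-MIC-1 against control, 1 of 6 rose (9.33% of all genes). Cfd, the adipocyte protease adipsin, was that gene, at 2.15 ± 1.70 and 8.43 ± 2.26 FPKM (limma, adjusted p = 0.00907). The 7 adipocyte markers are all on this list, and their sum was 288 to 294 FPKM in control muscle, 220 to 244 FPKM in LPS and 324 to 352 FPKM in LPS-MIC-1. Nearly all of that sum was Fabp4, at 287 ± 1.94, 227 ± 11.1 and 325 ± 14.3 FPKM in the same groups. Since Fabp4 is not a gene of fat cells alone, the sum does not measure fat-cell RNA.

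Muscle wasting genes under C/EBP control were below the FPKM limit in the libraries labelled C2C12, and all 3 were tested in muscle. With LPS, 0 of 3 were called, where 1.25% of all genes were (limma; 3 at an unadjusted p under 0.05). In LPS-MIC-1, 2 of 3 rose against LPS and 3 of 3 against control, where 9.67% and 9.33% of all genes did. Trim63, the muscle ubiquitin ligase MuRF1, was at 88.7 ± 0.503, 78.9 ± 4.68 and 2263 ± 58.5 FPKM in control, LPS and LPS-MIC-1, and its log2 fold change was 4.84 against LPS (limma, adjusted p = 7.47e-11). Fbxo32, the ubiquitin ligase atrogin-1, was at 33.5 ± 0.115, 21.9 ± 0.791 and 225 ± 8.08 FPKM, a log2 fold change of 3.35 against LPS (limma, adjusted p = 4.21e-10). As with Cebpd, LPS-MIC-1 was the group apart for both ligases.

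Genes whose pattern was most like that of a C/EBP gene were ranked by Pearson's r of log2(FPKM + 0.1) over the 9 libraries of an experiment. These r values are descriptions, since the libraries form 3 groups and share their group differences. Among 8150 genes in the libraries labelled C2C12, Cebpb was most like Cpd (r = 0.999), Dusp5 (0.998) and 2310022A10Rik (0.998). Dusp5, a phosphatase of ERK kinases, was at 32.2 ± 2.18 FPKM in control and 448 ± 6.91 FPKM in LPS. Cebpd was most like Thap7 (0.986), Anxa4 (0.984) and Chac1 (0.980). Cebpg was most like Isg15 (0.999), Zfp295 (0.998) and Hmox1 (0.998), of which Hmox1, the haem-degrading enzyme, was at 145 ± 0.818 FPKM in control and 4524 ± 61.3 FPKM in LPS. Cebpz was most like Pcyox1l (0.996), Fignl1 (0.992) and Lars2 (0.991).

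Among 5463 genes in muscle, Cebpb was most like Tinagl1 (0.998), Fbxo32 (0.998) and Klf15 (0.998). Klf15, a glucocorticoid-induced transcription factor, was at 8.58 ± 0.705 FPKM in control, 5.34 ± 0.0533 with LPS and 88.7 ± 4.04 FPKM in LPS-MIC-1. Cebpd was most like Mustn1 (0.999), Pik3ip1 (0.999) and Errfi1 (0.999). Cebpz was most like Ncl (0.988), the nucleolar protein nucleolin, then Rhoc (0.987) and H13 (0.984). For Cebpg no gene passed 0.95, and the nearest were Vta1 (0.935), Fyco1 (0.932) and Ttc35 (0.926). In muscle, 9.34%, 8.71% and 4.27% of the compared genes had an r over 0.95 with Cebpb, Cebpd and Cebpz. In the libraries labelled C2C12, 4.33%, 0.785%, 3.73% and 3.19% had one with Cebpb, Cebpd, Cebpg and Cebpz. Within the family, Cebpb and Cebpd had r = 0.998 in muscle and 0.594 in the libraries labelled C2C12, whereas Cebpb and Cebpg had r = -0.57 and 0.982.

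The position of the genes was read from the GRCm38.p6 gene table of RefSeq by symbol, for neighbours only, since the files were made on the mm9 build. Cebpa and Cebpg lie beside each other on chromosome 7, with no protein-coding gene wholly between them, and differed in level in every group. Cebpb lies on chromosome 2, Cebpd on chromosome 16 and Cebpz on chromosome 17. Cebpd overlaps Spidr, a DNA repair gene listed as 2310008H04Rik, which was at 15.5 to 20.8 FPKM in the control and LPS libraries labelled C2C12, at 1.40 to 1.76 FPKM in LPS-MIC-1 and at 0 to 1.08 FPKM in muscle. In the muscles where Cebpd was at 377 to 422 FPKM, this gene was thus at most at 1.08 FPKM. Cebpz overlaps Cebpzos, listed as 1110001A16Rik, at 4.71 to 7.89 FPKM in the libraries labelled C2C12 and 13.2 to 21.5 FPKM in muscle. Whether the reads were counted by strand is not given in the sources used here, so reads shared by overlapping genes cannot be told apart.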

How the data were processed

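RNA was measured in 18 mouse libraries, 9 labelled C2C12 and 9 of gastrocnemius muscle. The authors deposited FPKM values per gene and library, made by pseudoalignment with kallisto and summed to genes with tximport. The labels name the mm9 build, and the annotation is not given in the sources used here. The authors also deposited tables of their DESeq2 comparisons. From 5 of these, only the mean normalized count, a signal averaged by the authors over 6 libraries, was read. Their fold changes and p-values were not used, nor was the table of control and LPS muscle, which lists another set of genes. In the muscle file, 9 numeric columns without a sample name were not used. Read totals are not in the files used, so the depth of each library is unknown, and the FPKM values of a library summed to 547475 to 797734. Each file lists 21401 genes. The 2 experiments were normalized separately and fitted apart.

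From these values, log2(FPKM + 0.1) of genes with a mean over 1 FPKM was fitted on the 9 libraries of an experiment with limma 3.58.1 in R 4.3.3 (eBayes with trend), with Benjamini-Hochberg adjustment over all tested genes. A fold change is on that scale, which understates changes of low genes. Single ratios were tested with exact two-sided permutation tests (scipy 1.17.1). The fit was tested on simulated data. The members and the gene lists were chosen with earlier results of these data known. Besides the C/EBP genes, the text names from each list the 2 called genes with the largest change in LPS against control and in LPS-MIC-1 against LPS of an experiment, Cebpe and Ddit3, the 3 genes most like each C/EBP gene among those with a mean over 5 FPKM, and the 2 most abundant genes of a marker list. Cfd, Il1r1 and the marker genes listed at 0 were named after their values were seen. The alternatives were other pseudocounts, filters, scalings and variance models, the 6 libraries of a comparison alone, a replicate block, unadjusted p-values and leaving out each library.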

Additional observations from a re-analysis of the deposited data

Results flagged for a closer look

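4 pairs of results were singled out because every library of one group lay on one side of the other group in the libraries labelled C2C12 and on the opposite side in muscle. Separation in either direction was common, at 79.4% to 85.5% of all genes in the comparisons of the libraries labelled C2C12 and 36.5% to 64.6% in muscle. How many of all genes separated in opposite directions was not counted, so the pairs are not shown to be particular to the C/EBP genes. For Cebpb, LPS against control gave a log2 fold change of 1.92 in the libraries labelled C2C12 and -0.49 in muscle, and LPS-MIC-1 against LPS gave -1.96 and 2.49. For Cebpd, LPS against control gave 1.05 and -1.46. For Cebpz, LPS-MIC-1 against control gave -0.18 and 0.41. The difference between the experiments was not tested in any of the 4, since the files were normalized separately and the experiments differ in dose, time and route. In the libraries labelled C2C12 the macrophage marker sum was 7242 to 10361 FPKM in control and LPS, and in muscle it was 17.1 to 26.6 FPKM in those groups. The part of this in the opposite signs was not tested.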

How the results depend on the processing

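In the libraries labelled C2C12, the number of C/EBP genes called in LPS against control ranged from 1 to 2 when single libraries were left out, and was 1 without any one of the control or LPS libraries, where Cebpd was lost. For LPS-MIC-1 against LPS the number was 1 with a pseudocount of 1 and 1 after quantile normalization, and ranged from 1 to 2 when single libraries were left out, with Cebpg lost each time. In LPS-MIC-1 against control it ranged from 0 to 1, and was 1 without LPS-MIC-1 replicate 2, where Cebpd passed. In muscle, the number of C/EBP genes called was 1, 2 and 2 under all alternatives. Across both experiments, 442 of the alternative fold changes of single C/EBP genes kept their direction and side of the threshold, 10 lost the call, 1 gained it and 3 changed sign. In 6 of the 10, Cebpd in LPS against control of the libraries labelled C2C12, only the adjusted p crossed its threshold, and in the other 4, Cebpg in LPS-MIC-1 against LPS, the fold fell under the limit. The 3 that changed sign were not called in the first place. In the libraries labelled C2C12, Cebpd in LPS-MIC-1 against LPS ranged from -0.31 to 0.0058 and Cebpb in LPS-MIC-1 against control from -0.089 to 0.010 when single libraries were left out, both above 0 without LPS-MIC-1 replicate 2, and Cebpg in LPS-MIC-1 against control gave 0.086 after quantile normalization. The cause was not tested.

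No pairing of the libraries by the replicate numbers of the labels was seen, though so few libraries cannot show that there was none. Same-numbered libraries deviated from their group means with r of -0.08 to 0.06 in the libraries labelled C2C12 and -0.05 to 0.08 in muscle (9 pairs each), against -0.09 to 0.12 and -0.07 to 0.08 for other pairs. With a replicate block, the numbers of C/EBP genes called were 2, 2 and 0 in the libraries labelled C2C12 and 1, 2 and 2 in muscle, and no call of a C/EBP gene changed.

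Counts over all tested genes moved by over 1.5 times in muscle alone. In LPS against control, 118 genes were called, and 71 with a pseudocount of 1, 57 with a mean over 5 FPKM (fewer genes tested) and 185 at an unadjusted p. For LPS-MIC-1 against LPS, 1431 were called, with 2158 without the FPKM limit and 656 over 5 FPKM, and against control 1464, with 2240 and 677. Quantile normalization moved the share called higher in LPS-MIC-1 against LPS from 64.0% to 53.9%, with a median over all genes of -0.12. Without the LPS-MIC-1 library richest in macrophage markers, an alternative added after seeing the data, the number of list genes called moved by over 1.5 times in 3 of 45 comparisons, given with the lists. Depth is unknown, so no detection limit was set for Cebpa.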
